A study of Mus musculus with 12 samples.

Results

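The endothelial marker genes described here are 10 genes that mark the cells lining blood vessels: Pecam1, Cdh5, Cldn5, Vwf, Tek, Tie1, Eng, Flt1, Kdr and Plvap. The list is defined by gene name, and all 10 are among the 19937 genes measured, each through a single probe set with no second gene symbol. Values are Affymetrix array intensities given as log2, so that a difference of 1 is a doubling. The study turned an active YAP1 on and off in muscle-derived tumours. Its 4 groups of 3 arrays are tumours under doxycycline (TUM, day 0), tumours 3 days (OFF3) and 6 days (OFF6) after doxycycline was withdrawn, and control hindlimb muscle (CTL).

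All groups shared a C57BL/6 background and the same alleles: Myf5Cre, which acts in the Myf5 lineage, together with R26-LSL-rtTA, the activator that Cre releases, and, at Col1a, a Teto-driven human YAP1 carrying S127A. Donors of the tumours had received doxycycline for 4 weeks. Interstitial cells of their hindlimb muscle were then grafted into the gastrocnemius of NOD/SCID hosts that were given doxycycline, a strain without mature T and B cells. CTL muscle came from mice of this genotype in which the transgene was never induced. Tumours and CTL therefore differ in host strain, grafting and induction as well as in tumour growth, and these cannot be told apart. Between the OFF groups and TUM, doxycycline and YAP1 induction change together. The arrays cannot tell host vessels from vessels formed by grafted cells. The labels do not state that arrays of a group came from separate animals, so a p-value here covers the spread between arrays, which may be technical.

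Endothelial cells are joined by PECAM1 and VE-cadherin (Cdh5) and sealed by claudin 5 (Cldn5). VEGF signals mainly through KDR, while FLT1 binds VEGF tightly and can act as a decoy. Angiopoietins signal through TEK, with TIE1 as a partner, and endoglin (Eng) is a co-receptor for BMP and TGF-beta ligands. Von Willebrand factor (Vwf) is stored in endothelial granules and binds platelets, and PLVAP forms the diaphragms of fenestrae and caveolae. Skeletal muscle holds a dense bed of continuous capillaries.

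Windows around a start of transcription are shown for the angiopoietin and VEGF receptors described below. ETS factors act on many endothelial promoters, so the letters GGAAG, which hold the shorter ETS core GGAA, were searched on both strands. The core itself was not counted, so a window without GGAAG can still hold it. The windows (RefSeq, GRCm38.p6) run from 250 bases before to 50 after a start. For Tek, Kdr and Flt1 this start lies inside the gene, by the gene positions given below, and sequence around the gene's own end was not searched. Windows were at hand for Cldn5, Tek, Tie1, Eng, Flt1 and Kdr, and not for Pecam1, Cdh5, Vwf and Plvap. Those shown are at chr4:94739039-94739338 on the plus strand (Tek), chr4:118489800-118490099 on the minus strand (Tie1), chr5:75978406-75978705 on the minus strand (Kdr) and chr5:147725962-147726261 on the minus strand (Flt1), written along the gene's strand with GGAAG and its reverse complement CTTCC in capitals:
Tek: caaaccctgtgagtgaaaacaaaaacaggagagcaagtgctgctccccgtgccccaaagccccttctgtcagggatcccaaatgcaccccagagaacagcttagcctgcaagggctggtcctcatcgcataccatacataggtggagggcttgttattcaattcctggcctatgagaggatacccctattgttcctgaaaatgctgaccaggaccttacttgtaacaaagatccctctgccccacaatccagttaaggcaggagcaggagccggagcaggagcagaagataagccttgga
Tie1: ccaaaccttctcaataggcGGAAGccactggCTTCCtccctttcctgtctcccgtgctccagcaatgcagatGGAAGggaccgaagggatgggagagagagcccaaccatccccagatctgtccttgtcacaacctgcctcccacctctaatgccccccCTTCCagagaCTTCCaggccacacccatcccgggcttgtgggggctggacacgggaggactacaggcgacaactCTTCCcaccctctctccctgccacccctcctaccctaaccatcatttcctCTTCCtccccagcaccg
Kdr: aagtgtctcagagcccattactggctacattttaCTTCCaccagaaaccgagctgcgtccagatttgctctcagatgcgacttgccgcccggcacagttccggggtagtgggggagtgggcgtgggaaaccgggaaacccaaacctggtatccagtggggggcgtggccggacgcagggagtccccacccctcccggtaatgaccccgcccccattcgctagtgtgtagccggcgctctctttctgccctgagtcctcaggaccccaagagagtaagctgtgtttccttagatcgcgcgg
Flt1: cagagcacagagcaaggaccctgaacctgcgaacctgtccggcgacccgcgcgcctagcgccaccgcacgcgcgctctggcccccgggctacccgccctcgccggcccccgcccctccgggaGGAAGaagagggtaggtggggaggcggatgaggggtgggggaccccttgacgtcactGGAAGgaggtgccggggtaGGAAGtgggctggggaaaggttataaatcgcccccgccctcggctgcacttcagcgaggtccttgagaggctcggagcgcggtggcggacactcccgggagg
The letters stood 7 times in the Tie1 window, 3 times in Flt1, 2 times in Eng, 1 time in Kdr and 0 times in Tek and Cldn5. Of 32851 RefSeq windows of this length, 71.4% hold them. The GATA letters GATAAG, on either strand, stood 1 time in the Tek window and in none of the other 5, and are held by 7.44% of all windows. A match is a description of the letters only.

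The mean of the endothelial markers was lowest in day 0 tumours, higher 3 days after withdrawal, between these at 6 days and highest in muscle. Not every marker kept this order. By group mean, Plvap was lowest in CTL (7.94) and Cdh5 in OFF6 (10.01, against 10.06 in TUM). Eng (10.46, against 10.29 in CTL) and Cldn5 (8.52, against 8.46 in CTL) were highest in OFF3. The mean log2 intensity over the 10 markers was 8.33 to 8.39 on the TUM arrays, 8.89 to 8.98 on OFF3, 8.64 to 8.82 on OFF6 and 9.21 to 9.27 on CTL, and no ranges overlapped. The median over all genes was 7.13 in TUM, 7.16 in OFF3, 7.17 in OFF6 and 6.99 in CTL. In bulk tissue, fewer endothelial cells and less RNA per cell cannot be told apart.

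OFF6 replicate 2 stood apart. Across genes it correlated at 0.995 with OFF3 arrays and 0.991 with the other OFF6 arrays, and its marker mean was 8.82, against 8.67 and 8.64 on the other OFF6 arrays.

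**Figure D1:**
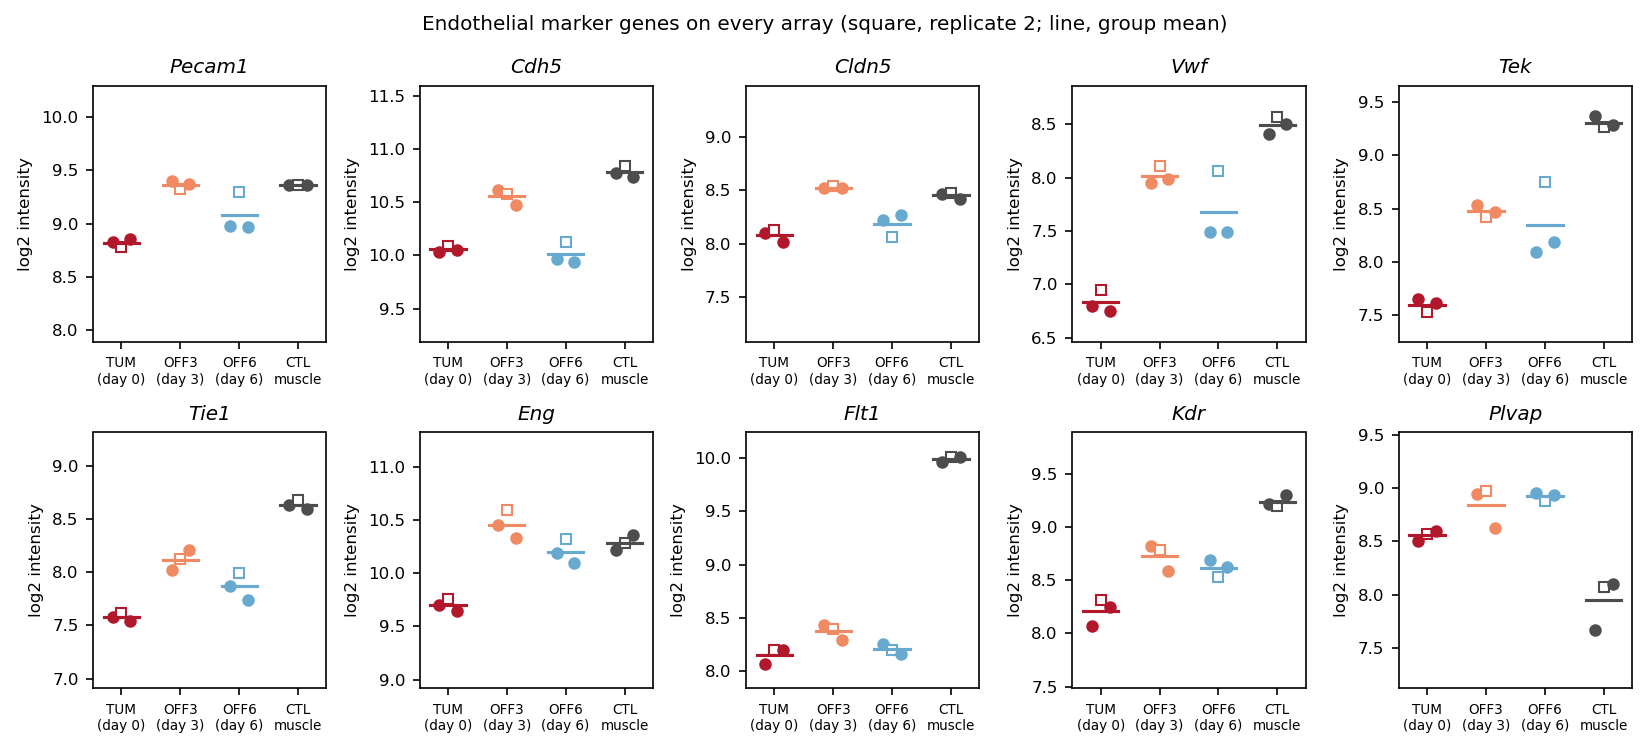
Log2 intensity of each endothelial marker gene on every array, by group along the horizontal axis. Plvap has its CTL arrays (7.67 to 8.10) below all tumour arrays, and Flt1 stays far below its CTL arrays in all tumours.

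Against muscle, day 0 tumours had less of nearly every marker. In TUM minus CTL, 9 of 10 markers were lower and 1, Plvap, was higher at an adjusted p under 0.05, beside 45.9% of all genes lower and 30.3% higher. Their median difference was -0.87, against -0.15 for all genes. Flt1 (-1.84 ± 0.06, SE), Tek (-1.71 ± 0.13) and Vwf (-1.66 ± 0.13) were the furthest down. The groups did not overlap for these 9 lower markers and 1 higher one, beside 50.4% and 32.3% of all genes.

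By 3 days after withdrawal, 9 of 10 markers rose and 0 fell (OFF3 minus TUM), beside 13.4% of all genes higher and 16% lower. At an unadjusted p under 0.05, 0 were lower. The median difference was 0.53, against 0.02 for all genes. The exception was Plvap. Every OFF3 array lay above every TUM array for 10 of 10, beside 22.1% of all genes. Vwf rose most (2.27-fold), then Tek (1.84-fold) and Eng (1.69-fold).

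At 6 days, 7 markers were higher than in TUM and 0 lower, beside 14.9% and 16.6% of all genes, with a median of 0.32 against 0.05. At an unadjusted p under 0.05, 0 were lower. Cdh5, Cldn5 and Flt1 were not called. Groups did not overlap for 7 markers, beside 26.9% of all genes. Without OFF6 replicate 2, 7 were higher, with Cldn5 in and Pecam1 out, beside 16.2% of all genes. Without it, OFF6 minus TUM was 0.22, adjusted p = 0.0305 for Tie1, 0.45, adjusted p = 0.000897 for Eng, 0.45, adjusted p = 0.00167 for Kdr, 0.38, adjusted p = 0.0378 for Plvap, -0.10, adjusted p = 0.249 for Cdh5 and 0.05, adjusted p = 0.592 for Flt1. With single arrays left out, the count of higher markers ranged between 5 and 7. Leaving out TUM replicate 1, 2 or 3 ended the calls of Pecam1 and Plvap, where 2245, 2546 and 2226 of 19937 genes were higher. Both times are set against the same TUM arrays.

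Between the times, Pecam1, Cdh5, Cldn5 and Tie1 were lower in OFF6 than in OFF3, so that 4 markers were lower and 0 higher, beside 4.38% and 6.05% of all genes. At an unadjusted p under 0.05, 7 were lower and 0 higher, a threshold at which the share of all genes was not computed. Groups did not overlap for 6 lower ones, beside 8.73% of all genes without overlap in that direction. Without OFF6 replicate 2, OFF6 minus OFF3 was -0.39, adjusted p = 0.000331 for Pecam1, -0.60, adjusted p = 3.59e-05 for Cdh5, -0.28, adjusted p = 0.00389 for Cldn5, -0.31, adjusted p = 0.0069 for Tie1, -0.07, adjusted p = 0.675 for Kdr, -0.17, adjusted p = 0.114 for Flt1 and 0.09, adjusted p = 0.716 for Plvap. The count rests on single arrays. It was 7 without OFF6 replicate 2 (beside 12.4% of all genes), 3 without OFF3 replicate 3, and 2, Cdh5 and Cldn5, without any other single array. It was 2 with the replicate number as a block, where 689 of 19937 genes were lower. In a fit of only the 6 arrays it was 0, where 11 of all genes were lower.

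**Figure D2:**
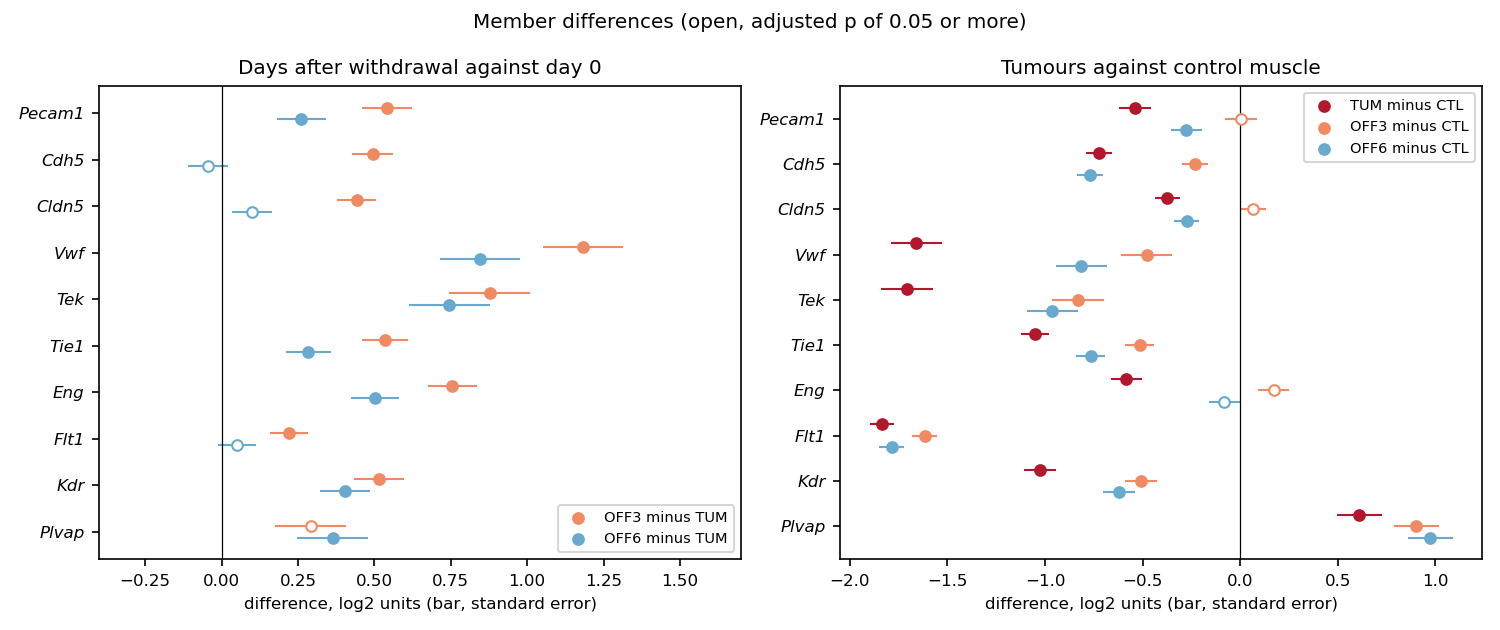
Difference in log2 intensity of each marker with its standard error, for the comparisons named on the panels; filled points have an adjusted p under 0.05. OFF3 minus TUM runs between 0.22 (Flt1) and 1.18 (Vwf), and Plvap alone is above 0 by test in the comparisons with CTL.

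Among junction genes, Pecam1 (chr11:106654213-106715281), also found on platelets and leukocytes, had log2 intensities of 8.83, 8.78 and 8.85 in TUM, 9.40, 9.32 and 9.37 in OFF3, 8.98, 9.30 and 8.97 in OFF6, and 9.36 on each CTL array. OFF3 lay around the CTL level, and OFF6 replicate 2 lay near OFF3 while the other OFF6 arrays lay nearer TUM. Pecam1 rose by day 3 (0.54 ± 0.08, adjusted p = 0.000279), and OFF3 minus CTL was 0.00 ± 0.08 (95% interval -0.17 to 0.18), with a sign that turned under both other scalings (-0.11 with quantile normalisation, -0.17 with median centring). In OFF6 minus TUM it was 0.26 ± 0.08 (adjusted p = 0.0269). That call was lost without OFF6 replicate 2 (0.15, adjusted p = 0.0569), in a fit of only the 6 arrays (adjusted p = 0.0815) and without TUM replicate 1, 2 or 3 (adjusted p = 0.0657, 0.085 and 0.0582), with 0.00809 to 0.085 over all alternatives. With array weights the difference was 0.16, adjusted p = 0.00809. OFF6 was lower than CTL (-0.28 ± 0.08, adjusted p = 0.0104), a call lost without OFF6 replicate 3 (-0.22, adjusted p = 0.0514, with 3.18e-05 to 0.0514 over all alternatives). That difference was -0.39, adjusted p = 6.99e-05 without OFF6 replicate 2 and -0.46, adjusted p = 0.000163 with median centring.

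Cdh5 (chr8:104101613-104144504), the cadherin that defines endothelial junctions, had 10.03, 10.09 and 10.05 in TUM, 10.61, 10.58 and 10.47 in OFF3, 9.97, 10.13 and 9.94 in OFF6, and 10.77, 10.84 and 10.74 in CTL. OFF3 stood between TUM and CTL, and OFF6 overlapped TUM. Cdh5 rose by day 3 (0.49 ± 0.07, adjusted p = 0.000121) and was lower in OFF6 than in OFF3 (-0.54 ± 0.07, adjusted p = 0.00117). The second call held whichever array was left out and was lost in a fit of only the 6 arrays (adjusted p = 0.0561, with 6.98e-08 to 0.0561 over all alternatives). OFF6 minus TUM was -0.04 ± 0.07 (95% interval -0.19 to 0.10).

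Cldn5 (chr16:18776847-18778262), the tight junction claudin, had 8.10, 8.13 and 8.02 in TUM, 8.52, 8.54 and 8.52 in OFF3, 8.22, 8.06 and 8.27 in OFF6, and 8.47, 8.48 and 8.42 in CTL. Every OFF3 array lay above those of the other groups, and OFF6 replicate 2 was the lowest of its group. Cldn5 rose by day 3 (0.44 ± 0.06, adjusted p = 0.000212) and was lower in OFF6 than in OFF3 (-0.34 ± 0.06, adjusted p = 0.00837), a call lost in a fit of only the 6 arrays (adjusted p = 0.1, with 4.63e-05 to 0.1 over all alternatives). OFF6 minus TUM was 0.10 ± 0.06 (adjusted p = 0.278), and leaving out OFF6 replicate 2 made it a call (0.16, adjusted p = 0.0497, with 0.00608 to 0.626 over all alternatives). OFF3 minus CTL was 0.07 ± 0.06 (95% interval -0.07 to 0.21), a sign that turned after quantile normalisation (-0.17) and median centring (-0.10).

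Vwf (chr6:125552948-125686679), the platelet-binding factor, had 6.80, 6.95 and 6.75 in TUM, 7.95, 8.11 and 7.99 in OFF3, 7.49, 8.06 and 7.49 in OFF6, and 8.41, 8.57 and 8.50 in CTL. All arrays after withdrawal lay between TUM and CTL, and OFF6 replicate 2 lay within the OFF3 range. Vwf rose by day 3 (1.18 ± 0.13, adjusted p = 2.26e-05) and was higher in OFF6 than in TUM (0.85 ± 0.13, adjusted p = 0.000289, and 0.65, adjusted p = 3.19e-05 without OFF6 replicate 2). OFF6 minus OFF3 was -0.34 ± 0.13 (adjusted p = 0.129) and passed without that array (-0.53, adjusted p = 0.00036, with 4.17e-06 to 0.432 over all alternatives). OFF3 (-0.48 ± 0.13, adjusted p = 0.00593) and OFF6 (-0.81 ± 0.13, adjusted p = 0.000131, and -1.01, adjusted p = 1.78e-07 without OFF6 replicate 2) were both lower than CTL. Quantile normalisation took OFF3 minus CTL to -0.72, adjusted p = 0.000215, with 5.28e-05 to 0.024 over all alternatives.

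Of the angiopoietin receptors, Tek (chr4:94739086-94874976) had 7.65, 7.53 and 7.61 in TUM, 8.53, 8.42 and 8.47 in OFF3, 8.09, 8.75 and 8.19 in OFF6, and 9.37, 9.27 and 9.28 in CTL. OFF6 replicate 2 was the highest tumour array, and no tumour array reached CTL. Tek rose by day 3 (0.88 ± 0.13, adjusted p = 0.000278) and was higher in OFF6 than in TUM (0.75 ± 0.13, adjusted p = 0.000827, and 0.54, adjusted p = 4.74e-05 without OFF6 replicate 2). OFF6 minus OFF3 was -0.13 ± 0.13 (adjusted p = 0.626) and passed without that array (-0.34, adjusted p = 0.00293, with 0.00293 to 0.993 over all alternatives).

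Tie1 (chr4:118471191-118489849), the partner of Tek, had 7.58, 7.62 and 7.54 in TUM, 8.02, 8.12 and 8.21 in OFF3, 7.87, 7.99 and 7.74 in OFF6, and 8.63, 8.68 and 8.59 in CTL, and its groups did not overlap. It rose by day 3 (0.53 ± 0.07, adjusted p = 0.000143) and was higher in OFF6 than in TUM (0.28 ± 0.07, adjusted p = 0.0102). It was lower in OFF6 than in OFF3 (-0.25 ± 0.07, adjusted p = 0.0498). Leaving out any array but OFF6 replicate 2 ended that call for Tie1 and for Pecam1, with 5.49e-05 to 0.235 over all alternatives for Tie1 and 1.75e-05 to 0.22 over all alternatives for Pecam1. With the replicate number as a block, adjusted p was 0.0664 for Tie1 and 0.0783 for Pecam1.

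Of the VEGF receptors, Kdr (chr5:75932827-75979072), which carries most VEGF signalling, had 8.07, 8.31 and 8.25 in TUM, 8.82, 8.78 and 8.59 in OFF3, 8.69, 8.53 and 8.62 in OFF6, and 9.21, 9.20 and 9.30 in CTL. OFF3 and OFF6 overlapped each other and lay between TUM and CTL. Kdr rose by day 3 (0.52 ± 0.08, adjusted p = 0.000433) and was higher in OFF6 than in TUM (0.40 ± 0.08, adjusted p = 0.00218). OFF6 minus OFF3 was -0.11 ± 0.08 (95% interval -0.29 to 0.07).

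Flt1 (chr5:147561604-147726438), the high-affinity VEGF receptor, had 8.07, 8.20 and 8.20 in TUM, 8.43, 8.40 and 8.29 in OFF3, 8.26, 8.20 and 8.16 in OFF6, and 9.96, 10.01 and 10.01 in CTL. All tumour arrays lay far below CTL, and OFF6 overlapped TUM. Relative to CTL, Flt1 was 3.57-fold lower in TUM, 3.07-fold lower in OFF3 and 3.45-fold lower in OFF6. Its rise by day 3 was small (0.22 ± 0.06, adjusted p = 0.0183). That call was lost without TUM replicate 1 (0.18, adjusted p = 0.0963), OFF3 replicate 1 (0.19, adjusted p = 0.058) or OFF3 replicate 2 (0.21, adjusted p = 0.0635), with 4.17e-05 to 0.0963 over all alternatives. OFF6 minus TUM was 0.05 ± 0.06 (95% interval -0.09 to 0.19).

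Eng (chr2:32646595-32682669), a co-receptor also made by macrophages and stromal cells, had 9.70, 9.76 and 9.65 in TUM, 10.45, 10.59 and 10.33 in OFF3, 10.19, 10.32 and 10.10 in OFF6, and 10.22, 10.28 and 10.36 in CTL. OFF3 and OFF6 lay above TUM, and each overlapped CTL. Eng rose by day 3 (0.76 ± 0.08, adjusted p = 1.49e-05) and was higher in OFF6 than in TUM (0.50 ± 0.08, adjusted p = 0.000345). OFF6 minus OFF3 was -0.25 ± 0.08 (adjusted p = 0.0629) and passed without OFF3 replicate 3 (-0.31, adjusted p = 0.034) or OFF6 replicate 2 (-0.31, adjusted p = 0.0138), with 1.18e-05 to 0.262 over all alternatives. OFF3 minus CTL was 0.17 ± 0.08 (adjusted p = 0.0698) and passed without OFF3 replicate 3 (0.23, adjusted p = 0.023) or OFF6 replicate 2 (0.17, adjusted p = 0.0486), with 0.00167 to 0.986 over all alternatives. Median centring brought it to -0.0014. OFF6 minus CTL was -0.08 ± 0.08 (adjusted p = 0.377). It was called lower with median centring (-0.26, adjusted p = 0.00591) and with array weights (-0.17, adjusted p = 0.0347), with 0.00591 to 0.772 over all alternatives.

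Plvap (chr8:71497753-71511806), the diaphragm protein, had 8.50, 8.57 and 8.60 in TUM, 8.94, 8.97 and 8.62 in OFF3, 8.95, 8.88 and 8.93 in OFF6, and 7.67, 8.07 and 8.10 in CTL. Every tumour array lay above every CTL array. Plvap was 1.53-fold higher in TUM than in CTL (adjusted p = 0.000405), 1.87-fold higher in OFF3 (adjusted p = 1.6e-05) and 1.97-fold higher in OFF6 (adjusted p = 8.5e-06). TUM minus CTL was 0.61 ± 0.12, and smaller after quantile normalisation (0.31, adjusted p = 0.0137, with 3.59e-05 to 0.0137 over all alternatives). OFF3 minus TUM was 0.29 ± 0.12 (adjusted p = 0.0803) and passed without OFF3 replicate 3 (0.40, adjusted p = 0.0198) or CTL replicate 1 (0.29, adjusted p = 0.0242), with 1.57e-05 to 0.257 over all alternatives. OFF6 minus TUM was 0.36 ± 0.12 (adjusted p = 0.0295). Without TUM replicate 1, 2 or 3 its adjusted p was 0.0984, 0.0647 and 0.0592, with median centring it was 0.0563, and without OFF6 replicate 1 or 3 it was 0.0781 and 0.0728, with 0.000127 to 0.0984 over all alternatives.

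Set against muscle after withdrawal, 6 markers were lower and 1 higher in OFF3, beside 41.4% and 28.4% of all genes. In OFF6, 8 were lower and 1 higher, beside 36.1% and 28.1%. Centring each array on its median moved the all-gene median by up to 0.18 and the all-gene calls to 4665 higher and 12243 lower in OFF3 minus CTL (otherwise 5657 and 8253), and to 4486 and 12001 in OFF6 minus CTL (otherwise 5602 and 7188). Without OFF6 replicate 2, 8 markers were lower and 1 higher than CTL in OFF6, beside 33.1% and 28.2% of all genes, and OFF6 minus CTL was -0.83, adjusted p = 1.83e-07 for Cdh5, -0.21, adjusted p = 0.00764 for Cldn5, -1.17, adjusted p = 1.14e-08 for Tek, -0.83, adjusted p = 5.5e-07 for Tie1, -0.14, adjusted p = 0.153 for Eng, -1.78, adjusted p = 3.26e-10 for Flt1, -0.58, adjusted p = 9.76e-05 for Kdr and 0.99, adjusted p = 2.51e-05 for Plvap.

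As a description, the share of the gap between TUM and CTL that was closed at day 3 was 129.4% in Eng, 118.2% in Cldn5, 100.7% in Pecam1, 71.2% in Vwf, 68.3% in Cdh5, 51.4% in Tek, 50.9% in Tie1, 50.3% in Kdr and 12% in Flt1. These shares depend on the scaling. With quantile normalisation and with median centring they were 128.7% and 99.8% in Eng, 74.5% and 79.6% in Cldn5, and 85.3% and 75% in Pecam1. At day 6 the share was 86% in Eng (76.3% without OFF6 replicate 2), 51% in Vwf (39.4% without it), 48.7% in Pecam1 (28.2%), 43.6% in Tek (31.6%), 39.5% in Kdr (43.6%), 27.1% in Tie1 (21.1%), 26.6% in Cldn5 (43.4%), 2.7% in Flt1 (3%) and -6.1% in Cdh5 (-14.2%). Median centring gave 63.7% for Eng, 11.3% for Cldn5, 0.4% for Flt1 and -10% for Cdh5 at day 6. Leaving out OFF6 replicate 2 changed the order of Vwf, Pecam1, Tek, Kdr, Tie1 and Cldn5.

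The markers moved unequally. Relative to the mean of the other 9 on the same arrays, Vwf differed by 0.66 in OFF3 minus TUM, Flt1 by -0.41 and Plvap by -0.33. In OFF6 minus OFF3, Cdh5 differed by -0.34 and Plvap by 0.34, or by -0.34 and 0.42 without OFF6 replicate 2. In TUM minus CTL, Plvap differed by 1.67 and Flt1 by -1.05. In each of these the groups did not overlap, with or without that array.

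**Figure D3:**
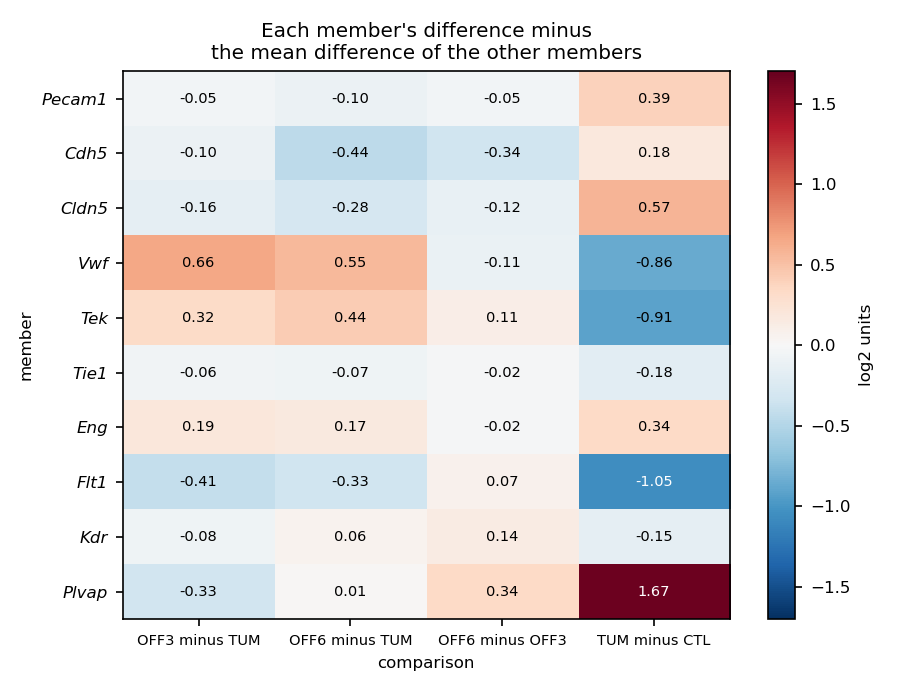
Difference of each marker minus the mean difference of the other 9, in log2 units, by comparison. Plvap against muscle (1.67 in TUM minus CTL) and Vwf after withdrawal (0.66 in OFF3 minus TUM) stand above the rest, and Flt1 against muscle (-1.05) below.

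Over the 9 tumour arrays, the closest pair of markers was Vwf and Eng (Pearson r = 0.974), followed by Tek and Vwf (0.964). The least alike were Cdh5 and Plvap (0.269). Cdh5 was closest to Flt1 (0.86) and Plvap to Kdr (0.884). The other genes nearest the marker mean over these arrays were Ninj1, Ciita, Tanc2, Fmod, Col6a2, Zdhhc14, Ddit4l and Slc8b1, with r between 0.992 and 0.997, and 663 of 18635 candidates had r above 0.9. Over all 12 arrays they were Slc7a2, Ltbp4, Ncoa1, Galnt15, Slc46a3, Ubl3, Kmt2c and Myh10 (0.985 to 0.994), with 391 candidates above 0.9. Arrays of a group share their condition, so these are descriptions.

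A wider list of 19 endothelial identity genes held 11 that rose and 1 that fell in OFF3 minus TUM (median 0.34), beside 13.4% and 16% of all genes. Clec14a (1.02 ± 0.14), a surface lectin, Ptprb (0.92 ± 0.09), the endothelial phosphatase that acts on TEK, and Adgrl4 (0.80 ± 0.08), an adhesion receptor, rose most. Emcn, a sialomucin of capillaries and veins, rose too (0.66 ± 0.10), while Apold1, an endothelial early response gene, fell (-0.32 ± 0.09), a call lost without TUM replicate 2 (adjusted p = 0.074) or OFF3 replicate 1 (adjusted p = 0.0557). In OFF6 minus TUM, 10 rose and 1 fell (median 0.23), beside 14.9% and 16.6% of all genes. Ptprb (0.61 ± 0.09), Clec14a (0.50 ± 0.14) and the secreted factor Egfl7 (0.46 ± 0.06) led these rises. The call of Clec14a was lost without TUM replicate 2 (adjusted p = 0.0527). The rises there numbered 6 without OFF6 replicate 2, and 5, 5 and 6 without TUM replicate 1, 2 or 3. In TUM minus CTL, 15 were lower and 3 higher (median -0.92), beside 45.9% and 30.3% of all genes. Ptprb (-2.04 ± 0.09), Myct1 (-1.29 ± 0.11) and the guidance receptor Robo4 (-1.23 ± 0.09) were furthest down, and Ecscr, an endothelial surface protein, was higher (0.85 ± 0.07).

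Of 17 transcription factors of endothelium, 6 rose and 4 fell in OFF3 minus TUM (median 0.17), and 4 rose and 4 fell in OFF6 minus TUM (median 0.13, with 3 that rose, 5 that fell and a median of 0.10 without OFF6 replicate 2). The all-gene shares were 13.4% higher and 16% lower by day 3, and 14.9% and 16.6% by day 6. Erg, an ETS factor that maintains endothelial identity, rose by day 3 (0.51 ± 0.09, adjusted p = 0.000884), stood above TUM at day 6 (0.50 ± 0.09, adjusted p = 0.000958) and was lower in TUM than in CTL (-0.998 ± 0.09). The list as a whole was split in TUM minus CTL, with 8 factors lower and 6 higher, beside 45.9% and 30.3% of all genes. Furthest apart there were Epas1 (-2.12 ± 0.10) and Lmo2 (0.93 ± 0.19). Mef2c, which also acts in muscle, rose by day 3 (0.80 ± 0.10) and day 6 (1.54 ± 0.10). Lmo2 (0.72 ± 0.19), also used in blood cells, and Epas1 (0.69 ± 0.10), a hypoxia factor, rose by day 3. The flow-responsive factor Klf4 fell by day 3 (-0.55 ± 0.09) and day 6 (-0.54 ± 0.09), and so did Ets1 (-0.54 ± 0.09 and -0.72 ± 0.09).

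Of 15 VEGF and angiopoietin ligands, co-receptors and relatives, 3 rose and 4 fell in OFF3 minus TUM (median -0.12), and 2 rose and 5 fell in OFF6 minus TUM (median -0.18, with 2 that rose, 7 that fell and a median of -0.20 without OFF6 replicate 2). All-gene shares were 13.4% higher and 16% lower in OFF3 minus TUM, and 14.9% and 16.6% in OFF6 minus TUM. The 4 that fell by day 3 became 2 without TUM replicate 3 and 1 at an adjusted p under 0.01. Vegfa, the main ligand of Kdr, fell by day 3 (-0.74 ± 0.08) and day 6 (-0.46 ± 0.08), and was lower in TUM than in CTL (-1.63 ± 0.08). Angpt1, the activating ligand of Tek, fell by day 3 (-0.33 ± 0.10) and day 6 (-0.40 ± 0.10) and was higher in TUM than in CTL (0.75 ± 0.10). Its day 3 call was lost without TUM replicate 1 or 3 or OFF3 replicate 2 or 3 (adjusted p = 0.0753, 0.0985, 0.0989 and 0.0641). Angpt2, its context-dependent counterpart, was not called in OFF3 minus TUM (0.27 ± 0.11, adjusted p = 0.0907) or OFF6 minus TUM (-0.01 ± 0.11, adjusted p = 0.963). Pgf, a ligand of Flt1, was not called either (-0.16 ± 0.09, adjusted p = 0.241 in OFF3, -0.12 ± 0.09, adjusted p = 0.352 in OFF6). The rises by day 3 were those of Angptl1 (1.11 ± 0.20), the apelin receptor Aplnr (0.88 ± 0.12) and the VEGF-C receptor Flt4 (0.80 ± 0.14). The co-receptor Nrp1 was not called by day 3 (0.26 ± 0.11, adjusted p = 0.092), and Nrp2 fell by day 6 (-0.82 ± 0.13).

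In the pathway of endoglin, 20 BMP and TGF-beta genes held 6 that rose and 1 that fell by day 3 (median 0.10), and 4 and 2 by day 6 (median 0.09, with 5 that rose, 3 that fell and a median of 0.09 without OFF6 replicate 2). Over all genes, the shares were 13.4% higher and 16% lower by day 3, and 14.9% and 16.6% by day 6. The 6 that rose by day 3 became 3 without TUM replicate 1 and ranged between 3 and 9 with single arrays left out. Acvrl1 (ALK1), the receptor that works with endoglin, rose by day 3 (0.32 ± 0.09, adjusted p = 0.0124, and 0.0532 without TUM replicate 1) and was not called at day 6 (-0.08 ± 0.09, adjusted p = 0.538). Tgfb3 (0.94 ± 0.06) and the co-receptor Tgfbr3 (0.84 ± 0.14) rose most by day 3, and the inhibitor Smad7 fell (-0.30 ± 0.06). Id1, a BMP target, rose by day 3 (0.26 ± 0.08, adjusted p = 0.0343) and day 6 (0.67 ± 0.08). Its day 3 call was lost without TUM replicate 1, 2 or 3 (adjusted p = 0.09, 0.0865 and 0.081). It was also lost without OFF3 replicate 1 or 2 (adjusted p = 0.0845 and 0.111).

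Of 13 genes of sprouting tip cells, 4 rose and 5 fell by day 3 (median -0.12), and 2 and 4 by day 6 (median -0.12, with 2 that rose, 5 that fell and a median of -0.12 without OFF6 replicate 2). Beside them, 13.4% of all genes rose and 16% fell by day 3, and 14.9% and 16.6% by day 6. Esm1, induced by VEGF in sprouting endothelium, fell by day 3 (-0.905 ± 0.07) and day 6 (-1.12 ± 0.07), as did the basement membrane gene Nid2 (-0.93 ± 0.09 and -1.03 ± 0.09). Lama4, a laminin of vessel walls, rose by day 3 (1.18 ± 0.11) and day 6 (0.96 ± 0.11), and the chemokine receptor Cxcr4 rose by day 3 (1.08 ± 0.16).

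Markers of other cells moved as well, in OFF3 minus TUM beside 13.4% of all genes higher and 16% lower. Of 12 pericyte and smooth muscle genes, 8 rose and 1 fell by day 3, with summed intensities of 17680 to 18170 in OFF3, 16750 to 18350 in OFF6, 14090 to 14390 in TUM and 18210 to 18580 in CTL. A sum weighs bright genes most. By group mean, Acta2 (12.24) and Des (12.2) were the brightest of these 12 genes in TUM, and Des (12.68) and Abcc9 (11.83) in CTL. Of 10 fibroblast genes, 8 rose and 0 fell, with sums of 25580 to 26650 in OFF3, 18340 to 25960 in OFF6, 15300 to 15820 in TUM and 13020 to 13650 in CTL. By mean log2 over the fibroblast genes, TUM and CTL stood in the opposite order, at 9.11 to 9.13 in TUM and 9.4 to 9.45 in CTL. Macrophages also make Pecam1, Eng and Flt1. Of 10 macrophage genes, 3 rose (5 without OFF6 replicate 2) and 2 fell (1 without any 1 TUM or OFF3 array), with sums of 21060 to 22480 in OFF3, 14340 to 21340 in OFF6, 18660 to 19030 in TUM and 3150 to 3473 in CTL. Platelets hold Vwf and Pecam1. Of 6 platelet genes, 0 rose and 0 fell (2 higher and 0 lower at an unadjusted p under 0.05). Leaving out OFF3 replicate 1 gave 2 that rose, CTL replicate 3 gave 1, and OFF6 replicate 2 gave 1 that rose and 1 that fell. Summed intensities of the platelet genes were 718.6 to 817 in OFF3, 607.9 to 851 in OFF6, 745.6 to 815.7 in TUM and 738.7 to 804.3 in CTL. In OFF3 minus TUM, 9 of 9 cell division genes fell (median -2.07) and 9 of 10 muscle fibre genes rose (median 1.09). In TUM minus CTL, 10 of 10 muscle fibre genes were lower, beside 45.9% of all genes. The part of these lists in the endothelial values was not tested.

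**Figure D4:**
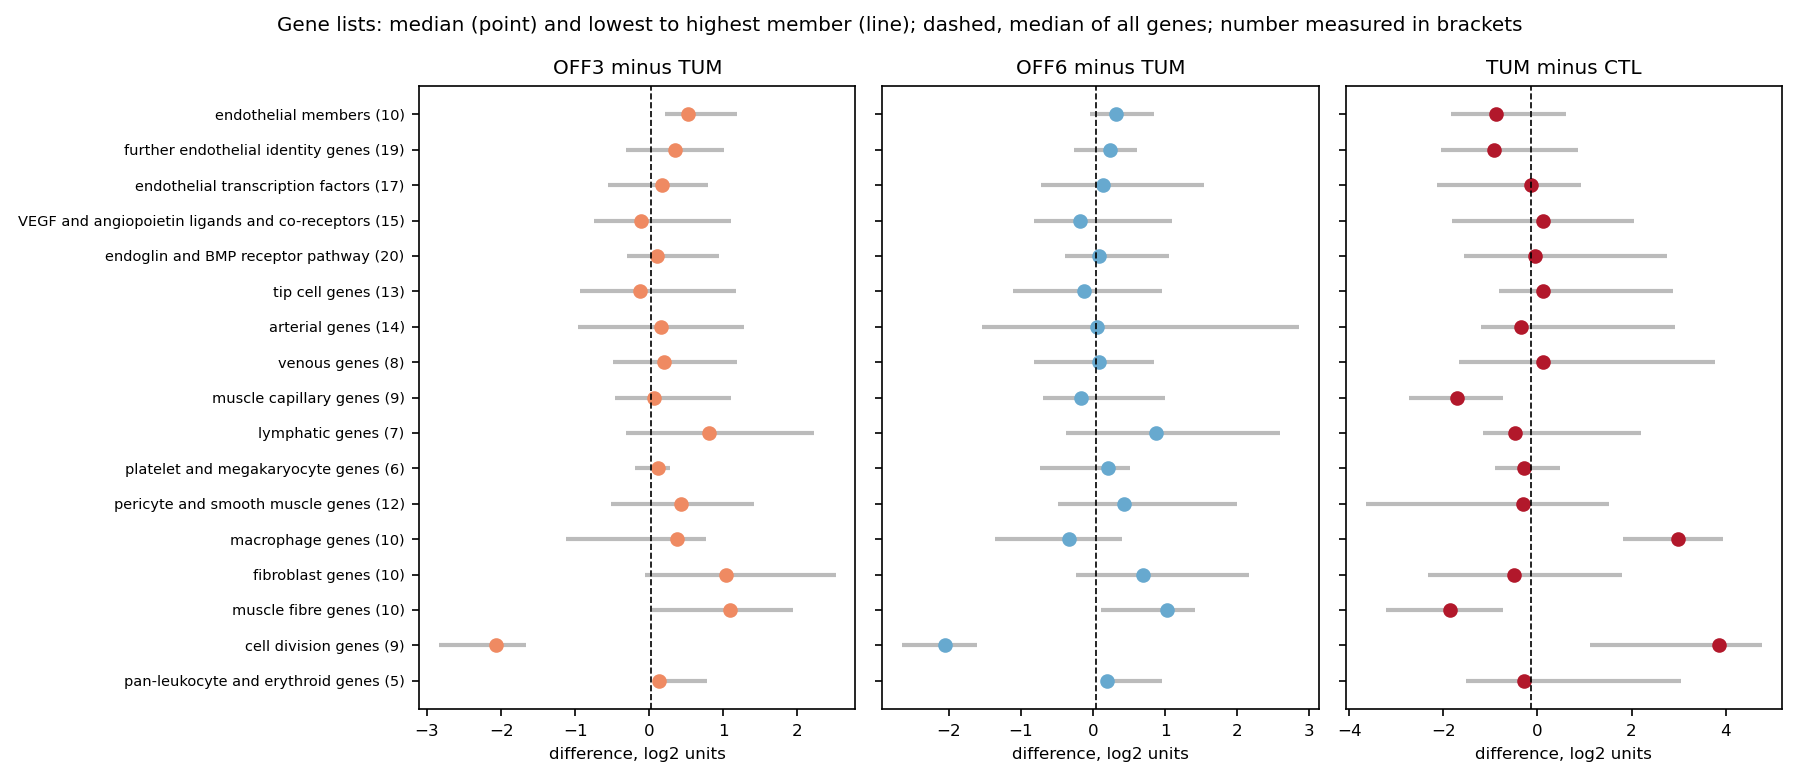
Median difference of each gene list in log2 units, with the spread of its genes, for the comparisons named on the panels. The endothelial markers have medians of 0.53 in OFF3 minus TUM, 0.32 in OFF6 minus TUM and -0.87 in TUM minus CTL, and cell division genes have the lowest median in OFF3 minus TUM (-2.07).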

How the data were processed

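The 12 samples were hybridised to one-colour Affymetrix arrays. The deposited intensity values are linear and were made by the authors with RMA, per the submitters' processing notes (its version is not given in the sources used here). RMA pulls low values together, which shrinks differences of dim genes. No scanner files were used here.

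The deposited intensities were turned into log2. Of 34760 probe sets, 21640 had a single gene symbol and were kept, 1321 had several and 11799 had none. For 954 genes with several, the one brightest on average was taken, which gave 19937 genes. Median intensity per array was 86.74 to 93.05, and no filter on low values was applied. The number of arrays limits precision: a difference had a median standard error of 0.086.

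A group-means model over all arrays was fitted in limma 3.58.1 (R 4.3.3), two-sided, with Benjamini-Hochberg adjustment across genes in each comparison. A call is an adjusted p under 0.05, and ± is a standard error. The fit was tested on simulated data. The alternatives were a replicate block, quantile normalisation, median centring, the mean of probe sets, genes above the median level, array weights, a trended and robust variance, only the 6 arrays compared, an adjusted p under 0.01, an offset of 16 before log2, and leaving out each array. Same-numbered arrays did not deviate together (r -0.387 to 0.249), so replicate numbers were not taken as pairs.

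The markers, lists and tests were chosen with earlier results of these data known. Named genes are the markers, 8 fixed genes (Vegfa, Pgf, Angpt1, Angpt2, Nrp1, Acvrl1, Erg and Emcn), per list and comparison the 3 called genes with the largest difference and the largest called against the majority, and the 8 genes most like the marker mean. Gene positions and sequences are from RefSeq (GRCm38.p6).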

Additional observations from a re-analysis of the deposited data

How the results depend on the processing

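Of 1320 recomputed differences of single markers, 1236 kept direction and call, 52 lost the call, 23 gained it and 9 changed sign. Many of these alternatives leave the difference itself unchanged by construction and can alter only the call. They include the replicate block, the mean of probe sets (each marker has a single one), the stricter threshold and leaving out an array of a group not compared. The 1236 is therefore not a count of independent checks. Signs changed only where nothing had been called: Plvap in OFF6 minus OFF3 (-0.022 with array weights, -0.040 to 0.14 with single arrays left out), Pecam1 in OFF3 minus CTL (-0.11 with quantile normalisation, -0.17 with median centring, -0.034 with array weights, -0.017 to 0.026 with arrays left out), Cldn5 in OFF3 minus CTL (-0.17 and -0.10 with those scalings) and Eng in OFF3 minus CTL (-0.0014 with median centring). Markers higher in OFF6 minus TUM numbered 7, and 4 at an adjusted p under 0.01 and 5 to 7 with arrays left out. Markers lower in OFF6 minus OFF3 numbered 4, and 2 with the replicate block, 8 with array weights, 0 with only the 6 arrays, 2 at an adjusted p under 0.01 and 2 to 7 with arrays left out. Markers higher in OFF3 minus CTL numbered 1, and 2 with array weights and 1 to 2 with arrays left out. The replicate block ended the calls of Pecam1 and Tie1 in OFF6 minus OFF3 and changed no other marker call.

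Of the identity genes, 10 rose in OFF6 minus TUM, and 6 among genes above the median level, 4 at an adjusted p under 0.01 and 5 to 10 with arrays left out. The 1 that fell in OFF3 minus TUM became 0 at an adjusted p under 0.01 and 0 to 1 with arrays left out. The 1 that fell in OFF6 minus TUM became 0 with the replicate block, 2 with array weights, 0 with a trended and robust variance, 0 with only the 6 arrays, 0 at an adjusted p under 0.01 and 0 to 1 with arrays left out. The 4 lower in OFF6 minus OFF3 became 2 with the replicate block, 11 with array weights, 1 with only the 6 arrays, 1 at an adjusted p under 0.01 and 1 to 7 with arrays left out. The 15 lower in TUM minus CTL became 9 among genes above the median level, where fewer genes are tested. For the other lists, 3729 of 4048 recomputed counts stayed within 1.5 times, and at an adjusted p under 0.01 fewer fell by day 3 in the tip cell (3) and arterial (1) lists. Where a count moved otherwise, the cause was not tested. Over all genes, array weights gave 11175 calls in OFF3 minus TUM (otherwise 5868), 10545 in OFF6 minus TUM (otherwise 6279) and 8424 in OFF6 minus OFF3 (otherwise 2080), where only the 6 arrays gave 30 and leaving out OFF6 replicate 2 gave 4874. Detection above background was not at hand, so how far low signal limits dim genes is not known here.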

Other observations

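Of 7 lymphatic genes, 4 rose and 0 fell in OFF3 minus TUM, and 4 rose and 1 fell in OFF6 minus TUM, where the counts without OFF6 replicate 2 were 4 and 1. Shares over all genes were 13.4% higher and 16% lower by day 3, and 14.9% and 16.6% by day 6. The number that fell by day 6 was 2 without OFF3 replicate 3. At an unadjusted p under 0.05, 0 were lower in OFF3. Mmrn1, a multimerin of lymphatic endothelium and platelets, rose by day 3 (2.23 ± 0.17) and day 6 (2.60 ± 0.17). Reln (1.34 ± 0.16 by day 3, 1.25 ± 0.16 by day 6) and Prox1 (1.14 ± 0.10 and 1.21 ± 0.10), which sets lymphatic fate and is also used in muscle, rose with it. Pdpn, a lymphatic surface protein also found on stromal cells, was not called (-0.12 ± 0.07, adjusted p = 0.23 in OFF3, -0.12 ± 0.07, adjusted p = 0.224 in OFF6), and Stab2 fell by day 6 (-0.38 ± 0.09).

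Of 14 arterial genes, 5 rose and 3 fell by day 3, and 5 and 3 by day 6 (5 and 3 without OFF6 replicate 2), beside all-gene shares of 13.4% and 16% by day 3 and 14.9% and 16.6% by day 6. Gja5, connexin 40, rose by day 3 (1.28 ± 0.24) and day 6 (2.86 ± 0.24), as did Hey1, a Notch target (0.72 ± 0.10 and 0.75 ± 0.10), while Efnb2, the arterial ephrin, fell (-0.96 ± 0.11 and -1.54 ± 0.11). All 9 muscle capillary genes were lower in TUM than in CTL, beside 45.9% of all genes. Cd36 (-2.74 ± 0.09), a fatty acid transporter, and Lpl (-2.73 ± 0.14), a lipase, were furthest down. The muscle fibre genes were all lower in TUM too, as given above, and the part of fibres in the capillary list was not tested. Gpihbp1, the capillary anchor of Lpl, fell by day 3 (-0.46 ± 0.13, a call lost without TUM replicate 1 or 2 or OFF3 replicate 1, with adjusted p = 0.0645, 0.0576 and 0.0557) and day 6 (-0.70 ± 0.13), while Meox2 rose (1.11 ± 0.14 and 0.99 ± 0.14). Of 8 venous genes, a list that holds Vwf, 3 rose and 1 fell by day 3, and 3 and 3 by day 6 (without OFF6 replicate 2, 2 fell by day 3, and 2 rose and 3 fell by day 6), with the venular chemokine receptor Ackr1 up at both (0.56 ± 0.12 and 0.70 ± 0.12). Of 5 leukocyte and erythroid genes, 2 rose by day 3 (1 without TUM replicate 2) and 1 by day 6, or 2 by day 6 without OFF6 replicate 2.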
